A study of Mus musculus with 12 samples.

Results

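The type I interferon-stimulated antiviral genes described here are 32 genes, chosen by name from the deposited table of 48709 genes, in which all 32 are present. They were followed through the activation of mouse CD8+ T cells, from the unstimulated state to 72 h after activation. The cells came from the spleens of OT-I mice, a strain with a transgenic T cell receptor that recognises a peptide of ovalbumin. The 4 groups are Naive cells, which were not activated, and cells collected 24, 48 and 72 h after activation, named 24h, 48h and 72h. Activation used antibodies to CD3 (2 ug/ml) and CD28 (1 ug/ml) with IL-2 (10 ng/ml) and lasted 48 h, after which the cells were taken off the activation plates and kept in ordinary culture. The antibodies engage the T cell receptor complex and a costimulatory receptor of every T cell, so the transgenic receptor's own peptide was not the stimulus named. If the hours count from the start of activation, which the labels do not spell out, the 72h cells had spent 24 h off the plates. Each group holds 3 libraries, described as biological replicates. The labels give no age, sex or strain beyond OT-I and no number of animals, so a p-value here measures the spread between these libraries. The extraction note mentions transferred OT-I cells, without saying whether any of these cells had been through a host.

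Type I interferons bind a receptor made of the chains Ifnar1 and Ifnar2, which carry the kinases Tyk2 and Jak1. The kinases phosphorylate Stat2, which with Irf9 is part of the factor ISGF3. ISGF3 binds a DNA sequence called the interferon-stimulated response element (ISRE) and induces genes whose products recognise viral RNA, degrade it or block its translation. Interferon gamma, which activated CD8+ T cells secrete, acts through another sequence, the gamma-activated site (GAS), and some genes respond to both kinds of interferon. Many antiviral genes are also transcribed at a low level in resting cells.

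Levels are given in TPM, reads per transcript length set to a fixed total per library, so that levels of different genes can be set beside each other. Differences are log2 fold changes on log2(TPM + 1), which understates the change of genes at low levels. Calls of higher or lower needed a limma adjusted p under 0.05 and a change of at least 1 on that scale in either direction. All 32 genes were among the 12630 tested, which needed 1 TPM in 3 or more libraries. Ifi44 entered through its 72h libraries alone. Oas2 would not have entered without its Naive libraries: of its later libraries only 72h replicate 3, at 1.03 TPM, reached 1 TPM. Reads recovered from the TPM values came to between 14312854 and 19495722 per library, and 19 of the 32 genes had at least 100 reads in every library. In 6 genes (Ifit3, Oas2, Oasl1, Rsad2, Rtp4 and Ifi44) some library held under 30 reads, the lowest being 8 reads for Ifit3 at 48h. The 8 CD8 T cell markers examined, among them Cd3e and Cd8a, were at 1 TPM or above in every library. Their sum was 5904 to 6244 TPM in Naive libraries, 3443 to 3702 TPM at 24h, 3055 to 3083 TPM at 48h and 3925 to 3960 TPM at 72h. At 24h, 48h and 72h vs Naive 3, 5 and 1 of the 8 were called lower, where 21.0%, 20.7% and 19.0% of all genes tested were. At 24h 1 was called higher, where 25.7% of all genes were. The Naive libraries also held transcripts of other spleen cells. Summed over 13 macrophage, monocyte and neutrophil markers these came to 2838, 1944 and 1118 TPM in the Naive libraries, 27.1 to 37.3 TPM at 24h, 14.4 to 17.8 TPM at 48h and 7.35 to 8.23 TPM at 72h. Fewer cells of a type and less RNA per cell cannot be told apart in such bulk libraries.

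The 32 genes did not move as a block. At 24h vs Naive 13 were called lower and 1 higher, where 21.0% of all genes tested were called lower and 25.7% higher. At 48h vs Naive 10 were called lower and 5 higher, where 20.7% and 24.7% of all genes were. At 72h vs Naive 7 were called lower and 9 higher, close to the 19.0% and 24.5% of all genes. The genes called lower at each of these times include Oas2, which entered the test through its Naive libraries. At 24h, 48h and 72h vs Naive the median log2 fold change of the 32 genes was −0.39, −0.35 and 0.34, while that of all genes tested was 0.15, 0.15 and 0.21. Their summed level was 961 to 1046 TPM in Naive libraries, 907 to 1044 TPM at 24h, 1121 to 1133 TPM at 48h and 1626 to 1646 TPM at 72h. The 24h sums overlapped the Naive sums, the 48h sums were above both, and the 72h sums were above all others.

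The split of calls at 48h and 72h vs Naive depends on the scaling of the libraries. With median-of-ratios scaling the median of all genes at 72h vs Naive was −0.06 and that of the 32 genes 0.04, and 5 were called higher (Oas3, Cmpk2, Eif2ak2, Parp9 and Dtx3l) and 8 lower. At 48h vs Naive 2 were called higher and 12 lower with that scaling, and likewise with quantile normalization. How many of all genes were called higher, and how many lower, in these fits is not given. A pseudocount of 5, which shrinks the changes of genes at low levels, ended 18 of the 56 calls of members over the 5 comparisons. These were the calls of Ifit1, Oasl2, Xaf1 and Cmpk2 at 24h, of Oas3, Oasl1, Oasl2 and Isg20 at 48h, and of Ifit1, Oasl1, Oasl2, Usp18 and Stat2 at 72h vs Naive. The others were those of Dhx58 at 48h vs 24h and of Isg20, Mx1, Rsad2 and Ddx58 at 72h vs 48h. Library weights ended 5 calls (Ifit1 at 24h and 72h, Oas3 and Oasl1 at 48h and Stat2 at 72h vs Naive), and voom on recovered reads ended 5 (Oas3 and Isg15 at 48h and Usp18, Parp14 and Stat2 at 72h vs Naive).

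**Figure D1:**
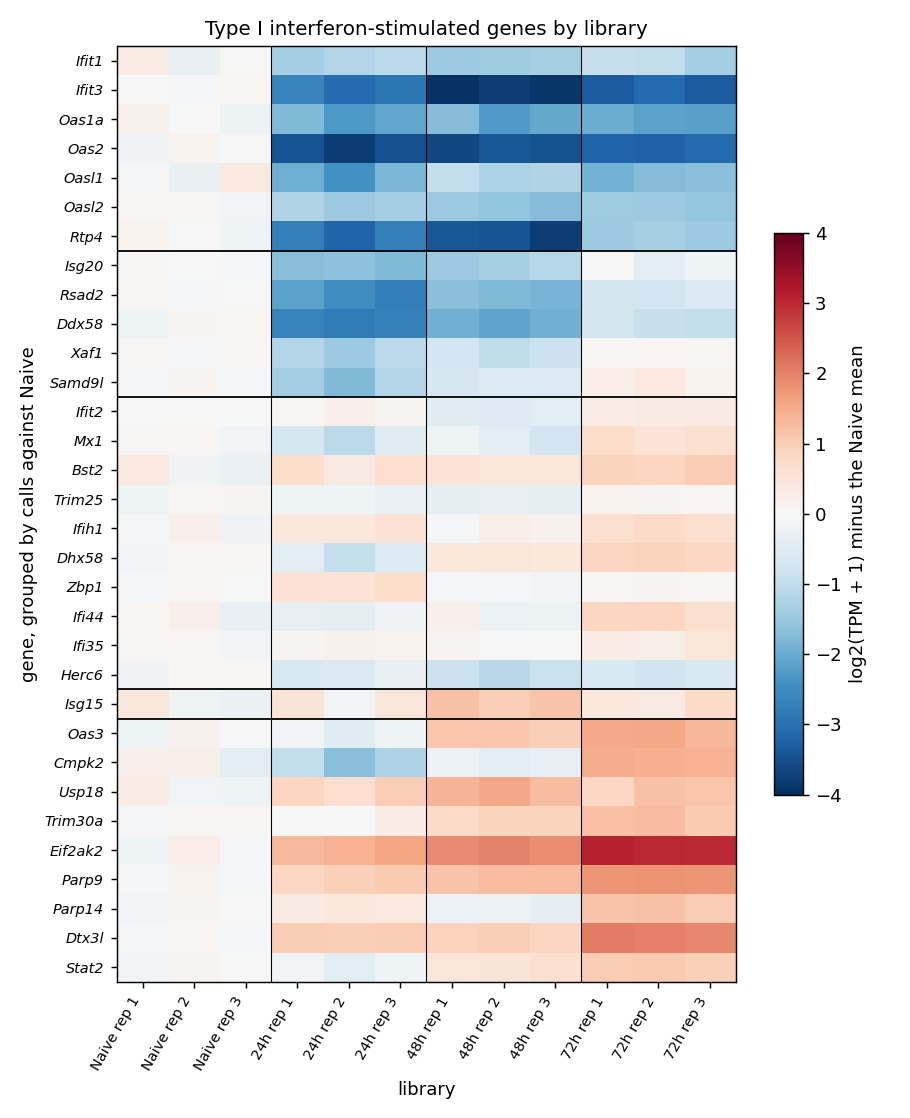
Log2(TPM + 1) of each of the 32 genes in each of the 12 libraries, minus the mean of the 3 Naive libraries, with red above and blue below that mean. Rows are grouped by their calls against Naive, from genes lower at all 3 times at the top to genes higher at 72h at the bottom, and the 3 libraries of each group look alike.

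Set against Naive cells, the genes fell into 5 patterns. Called lower at all 3 times were 7 genes: Ifit1, Ifit3, Oas1a, Oas2, Oasl1, Oasl2 and Rtp4. Called lower at 24h but not at 72h were 5 genes: Isg20, Rsad2, Ddx58, Xaf1 and Samd9l. Called higher at 72h were 9 genes: Oas3, Cmpk2, Usp18, Trim30a, Eif2ak2, Parp9, Parp14, Dtx3l and Stat2. Isg15 was called higher at 48h alone. The other 10 genes (Ifit2, Mx1, Bst2, Trim25, Ifih1, Dhx58, Zbp1, Ifi44, Ifi35 and Herc6) were not called against Naive at any time. Cmpk2 was the 1 gene called in both directions, lower at 24h and higher at 72h.

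**Figure D2:**
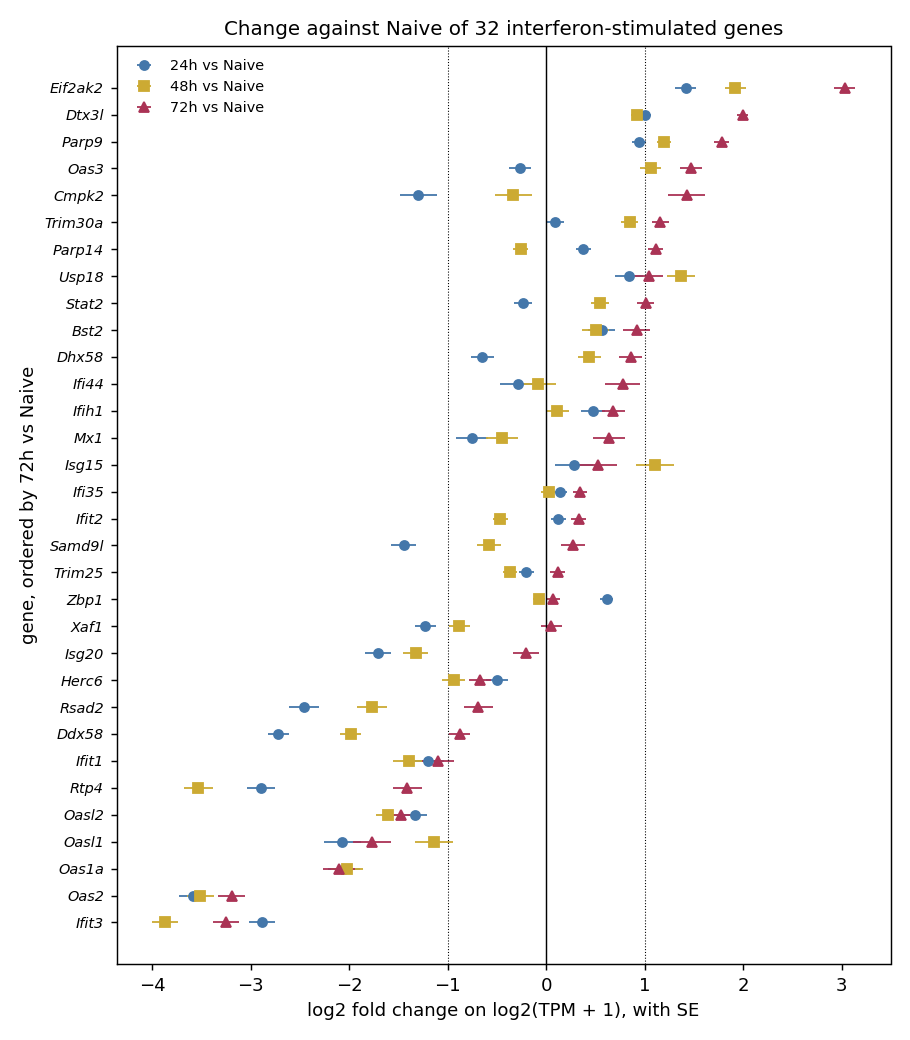
Log2 fold change on log2(TPM + 1) against Naive at 24h (circles), 48h (squares) and 72h (triangles), with standard errors as bars, for the 32 genes in the order of their 72h value. Dotted lines mark the fold minimum of 1 in each direction, and the 72h values run from −3.25 for Ifit3 to 3.03 for Eif2ak2.

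Promoter sequences are shown for 10 genes because they carry the element that ISGF3 reads, and because genes with it stood on both sides of the Naive level. They come from RefSeq promoters of the mouse build GRCm38.p6, which span 250 bases before to 50 after a gene's start, whereas the deposited values were made on GRCm39. Of the 32 genes, 24 had an entry. The capitals mark the ISRE core GAAANNGAAA, or TTTCNNTTTC where it lies on the other strand, with overlapping matches joined. Each stretch is read 5′ to 3′ on the gene's strand. The first 3 belong to genes that were lower at all 3 times, the next 4 to genes that were higher at 72h, the next 2 to genes that were lower at 24h and 48h, and the last to Isg15.
Ifit3, chr19:34583353-34583436, plus strand: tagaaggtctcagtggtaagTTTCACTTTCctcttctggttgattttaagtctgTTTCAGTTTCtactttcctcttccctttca
Ifit1, chr19:34640765-34640833, plus strand: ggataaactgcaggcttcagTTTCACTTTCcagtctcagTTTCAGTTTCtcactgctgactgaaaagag
Oas1a, chr5:120907526-120907565, minus strand: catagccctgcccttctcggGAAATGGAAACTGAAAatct
Oas3, chr5:120777705-120777754, minus strand: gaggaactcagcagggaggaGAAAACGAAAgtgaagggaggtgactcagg
Stat2, chr10:128270256-128270305, plus strand: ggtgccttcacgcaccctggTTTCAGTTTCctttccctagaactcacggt
Trim30a, chr7:104465200-104465249, minus strand: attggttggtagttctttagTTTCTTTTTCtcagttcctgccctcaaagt
Eif2ak2, chr17:78882535-78882564, minus strand: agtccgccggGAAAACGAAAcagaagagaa
Rsad2, chr12:26456543-26456592, minus strand: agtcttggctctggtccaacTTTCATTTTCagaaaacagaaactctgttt
Ddx58, chr4:40239804-40239833, minus strand: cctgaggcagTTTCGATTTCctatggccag
Isg15, chr4:156200855-156200916, minus strand: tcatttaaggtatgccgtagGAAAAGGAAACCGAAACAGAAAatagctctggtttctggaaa

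The core stood in 12 of the 24 promoters, against 1079 of 27025 genes with a promoter in the table (3.99%). A longer form, GAAANNGAAACT or its reverse AGTTTCNNTTTC, which overlaps the core, stood in 6 of 24 (25.0%) against 82 of 27025 (0.303%). The GAS form TTCNNNGAA, which reads the same on both strands, stood in 6 of 24 (25.0%) against 2582 of 27025 (9.55%). By pattern, the ISRE core was found in 3 of the 5 matched genes lower at all 3 times and in 4 of the 6 matched genes higher at 72h. It was found in 2 of 5 genes lower at 24h alone or at 24h and 48h, in Isg15, and in 2 of 7 genes never called against Naive (Bst2 and Ifih1). A match describes letters in this window and is no measure of binding.

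Transcripts of the type I interferons themselves were at or near 0. Of 21 interferon genes listed (Ifnb1, the Ifna genes, Ifne, Ifnk, the Ifnl genes and Ifng among them), 17 were at 0 TPM in all Naive libraries, 19 at 24h, 17 at 48h and 19 at 72h. Ifng, which encodes interferon gamma, was the only one at 1 TPM or above in any library. It stood at 27.2, 25.0 and 12.8 TPM in the Naive libraries, 1263, 1062 and 1426 TPM at 24h, 5702, 5841 and 6070.4 TPM at 48h and 21.7, 23.5 and 29.0 TPM at 72h. Ifng was far above Naive at 24h and 48h and overlapped the Naive values at 72h. Its log2 fold change was 8.08 (SE 0.21, adjusted p = 1.37e-12) at 48h vs Naive, 0.24 (SE 0.21, adjusted p = 0.305) at 72h vs Naive and −7.84 (SE 0.21, adjusted p = 7.9e-11) at 72h vs 48h.

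Of the genes that carry the type I signal, Irf9, Jak1 and Ifnar1 were called lower than in Naive cells at 1 or more times, and Stat2 was called higher at 72h. Stat2, a subunit of ISGF3, stood at 28.4, 33.0 and 30.8 TPM in the Naive libraries, 28.2, 22.3 and 27.4 TPM at 24h, 43.0, 44.7 and 48.3 TPM at 48h and 63.5, 64.1 and 60.5 TPM at 72h. Every 48h and 72h library was above every Naive library, and every 24h library was below. Stat2 passed the fold minimum at 72h vs Naive, at 1.01 (SE 0.09, adjusted p = 2.23e-07). That call lies at the minimum: it ended, at a log2 fold change of 0.95 to 1.00, when Naive replicate 1 or either of 72h replicates 1 and 2 was left out, at 0.70 under median-of-ratios scaling and at 0.72 under quantile normalization. Irf9, the DNA-binding part of ISGF3, averaged 60.6 ± 3.52 TPM in Naive cells, 24.4 ± 1.18 TPM at 24h, 22.5 ± 1.03 TPM at 48h and 42.8 ± 3.76 TPM at 72h (mean ± SD, n = 3 here and below). It fell at 24h and 48h vs Naive, with changes of −1.27 (SE 0.08, adjusted p = 3.92e-09) and −1.39 (SE 0.08, adjusted p = 1.73e-09), and was not called at 72h (−0.49).

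The receptor chain Ifnar1 averaged 40.7 ± 1.18 TPM at 24h, against 91.6 ± 15.1 TPM in Naive cells, and fell at 24h vs Naive (−1.14, SE 0.10, adjusted p = 1.16e-07). Its changes at 48h and 72h vs Naive were −0.80 and −0.80, under the fold minimum. The other chain, Ifnar2, was not called in any comparison, with changes vs Naive of −0.22, −0.27 and 0.16 at 24h, 48h and 72h. Jak1, which also serves many cytokine receptors, fell at all 3 times vs Naive, with changes of −1.46, −1.43 and −1.17 (SE 0.08, adjusted p of at most 1.31e-08). Tyk2 was not called, with changes vs Naive of −0.57, −0.48 and −0.57.

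**Figure D3:**
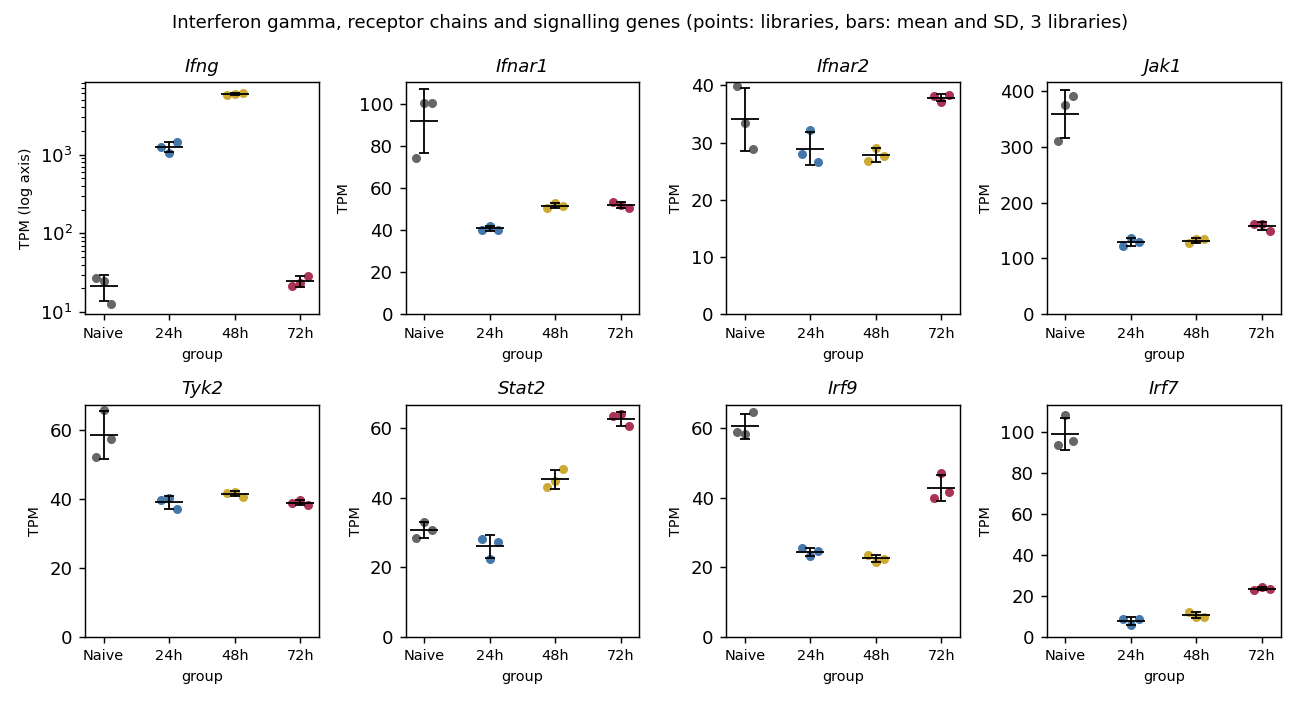
TPM of Ifng (log axis) and of Ifnar1, Ifnar2, Jak1, Tyk2, Stat2, Irf9 and Irf7 (linear axes from 0) in the 4 groups, with a point for each library and bars for the mean and SD of 3 libraries. Ifng peaks at 48h, Stat2 is highest at 72h, and Irf9 and Irf7 are lowest at 24h or 48h.

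Upstream of interferon, Irf7, the factor that drives transcription of most interferon alpha genes, fell at all 3 times vs Naive. It stood at 93.6, 108 and 95.9 TPM in the Naive libraries, 8.82, 5.48 and 8.601 TPM at 24h, 12.2, 9.58 and 9.62 TPM at 48h and 22.9, 24.5 and 23.3 TPM at 72h. Its changes were −3.56 (SE 0.14, adjusted p = 5.78e-11) at 24h, −3.13 (SE 0.14, adjusted p = 2.39e-10) at 48h and −2.03 (SE 0.14, adjusted p = 2.04e-08) at 72h vs Naive, and it rose by 1.10 at 72h vs 48h. Of 15 genes listed for nucleic acid sensing 14 were tested, and 2 were called higher and 4 lower at each time vs Naive. The largest falls after Irf7 were of Ikbke, a kinase upstream of Irf3 and Irf7 (−2.74 at 72h vs Naive), and Tlr9, an endosomal DNA receptor that B cells express strongly (−2.63). The largest rises were of Mb21d1, which encodes the DNA sensor cGAS (2.00 at 72h), Tmem173, which encodes its partner STING (1.33 at 24h), and Mavs, the adaptor of the RNA sensors (1.32 at 48h). Of 15 genes listed as brakes of interferon signalling, 3, 2 and 3 were called higher and 2, 3 and 2 lower at 24h, 48h and 72h vs Naive. Beside both lists, 24.5% to 25.7% of all genes tested were called higher and 19.0% to 21.0% lower at these times. Socs1, an inhibitor of Jak kinases, rose at 72h vs Naive (1.42), and Socs3, an inhibitor of related cytokine receptors, fell (−2.80). Rnaseh2a and Rnaseh2b, subunits of an enzyme that removes RNA from DNA, rose at 24h (1.53 and 2.44), while Irf2bp2 and Irf2, a corepressor and the repressor it binds, fell at 48h (−2.65 and −1.06).

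The IFIT genes encode proteins that bind foreign RNA or each other. Of the 3, Ifit1 and Ifit3 fell at every time vs Naive and Ifit2 was not called. Ifit1 (ENSMUSG00000034459), whose product recognises RNA caps that lack methylation, stood at 19.3, 12.6 and 15.9 TPM in the Naive libraries, 5.56, 6.41 and 6.99 TPM at 24h, 5.09, 5.27 and 5.69 TPM at 48h and 7.82, 7.48 and 5.36 TPM at 72h. The lowest Naive library was above every later library, and the later groups overlapped one another. Its log2 fold changes were −1.20 (SE 0.16, adjusted p = 1.02e-05) at 24h, −1.40 (SE 0.16, adjusted p = 2.25e-06) at 48h and −1.10 (SE 0.16, adjusted p = 2.4e-05) at 72h vs Naive. The 72h call was lost without Naive replicate 1, at −0.96, and without 72h replicate 3, at −0.95. Ifit3 (ENSMUSG00000074896), which encodes a protein that associates with other IFIT proteins, stood at 26.4, 25.1 and 28.0 TPM in the Naive libraries, 3.40, 2.24 and 2.61 TPM at 24h, 0.775, 1.00 and 0.866 TPM at 48h and 1.74, 2.20 and 1.72 TPM at 72h. No library of one group reached another, in the order Naive, 24h, 72h and 48h from high to low. Its changes vs Naive, −2.89 (SE 0.13, adjusted p = 1.91e-10), −3.87 (SE 0.13, adjusted p = 1.31e-11) and −3.25 (SE 0.13, adjusted p = 7.26e-11) at 24h, 48h and 72h, included the largest fall of the 32 genes. Ifit2, whose product binds AU-rich RNA, averaged 12.6 ± 0.165 TPM in Naive cells, 13.9 ± 0.669 TPM at 24h, 8.87 ± 0.366 TPM at 48h and 16.2 ± 0.301 TPM at 72h. Ifit2 stands next to Ifit3 in the RefSeq gene order of mouse chromosome 19, and its changes vs Naive were 0.12, −0.47 and 0.33. Ifit1 and Ifit3 each have a close copy, Ifit1bl1 and Ifit3b, and how reads shared between copies were counted is not given.

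The oligoadenylate synthetases make a short adenylate chain that switches on RNase L, which cuts RNA. Of the 5 members of this family, Oas1a, Oas2, Oasl1 and Oasl2 fell at all 3 times vs Naive, and Oas3 rose at 48h and 72h. Oas2 (ENSMUSG00000032690) stood at 14.97, 18.3 and 16.9 TPM in the Naive libraries, 0.613, 0.281 and 0.531 TPM at 24h, 0.418, 0.679 and 0.566 TPM at 48h and 0.911, 0.861 and 1.03 TPM at 72h. All Naive libraries were far above all later libraries, most of which were under 1 TPM. Oas2 was tested because of those Naive libraries, so its calls vs Naive are not independent of the filter. Its changes vs Naive were −3.59 (SE 0.14, adjusted p = 3.15e-11) at 24h, −3.51 (SE 0.14, adjusted p = 4.58e-11) at 48h and −3.19 (SE 0.14, adjusted p = 1.27e-10) at 72h. Oas3 (ENSMUSG00000032661), next to Oas2 in the RefSeq gene order, stood at 25.5, 32.7 and 28.3 TPM in the Naive libraries, 26.2, 20.1 and 25.2 TPM at 24h, 63.2, 61.9 and 57.6 TPM at 48h and 83.3, 86.3 and 74.2 TPM at 72h. The 24h libraries overlapped the Naive ones, and every 48h and 72h library was above both. The log2 fold changes of Oas3 were −0.27 (SE 0.11, adjusted p = 0.0376) at 24h, 1.06 (SE 0.11, adjusted p = 8.42e-07) at 48h and 1.47 (SE 0.11, adjusted p = 3.14e-08) at 72h vs Naive, and 1.33 (SE 0.11, adjusted p = 9.17e-07) at 48h vs 24h. Its 48h call vs Naive was lost without Naive replicate 1, at 0.98, or under median-of-ratios scaling (0.81) and quantile normalization (0.83), while those at 72h vs Naive and 48h vs 24h were kept in every alternative run.

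Oas1a (ENSMUSG00000052776) stood at 20.8, 18.6 and 15.9 TPM in the Naive libraries, 4.68, 2.9 and 3.58 TPM at 24h, 4.75, 3.04 and 3.65 TPM at 48h and 3.85, 3.42 and 3.27 TPM at 72h. The 3 later groups overlapped one another and lay below the Naive libraries, with changes of −2.05 (SE 0.16, adjusted p = 6.12e-08), −2.02 (SE 0.16, adjusted p = 7.46e-08) and −2.10 (SE 0.16, adjusted p = 5.26e-08) at 24h, 48h and 72h vs Naive. Oas1a has close copies, among them its neighbour Oas1g, and reads may be split between them. Oasl1, which in mice lacks synthetase activity and inhibits translation of Irf7 mRNA, averaged 8.38 ± 2.31 TPM in Naive cells, 1.23 ± 0.462 TPM at 24h, 3.19 ± 0.440 TPM at 48h and 1.70 ± 0.198 TPM at 72h. Its changes vs Naive were −2.07, −1.14 and −1.77, and the 48h call was lost without Naive replicate 3, at −0.95. Oasl2 averaged 7.25 ± 0.552 TPM in Naive cells, 2.28 ± 0.301 TPM at 24h, 1.72 ± 0.226 TPM at 48h and 1.97 ± 0.127 TPM at 72h, with changes vs Naive of −1.33, −1.60 and −1.47.

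**Figure D4:**
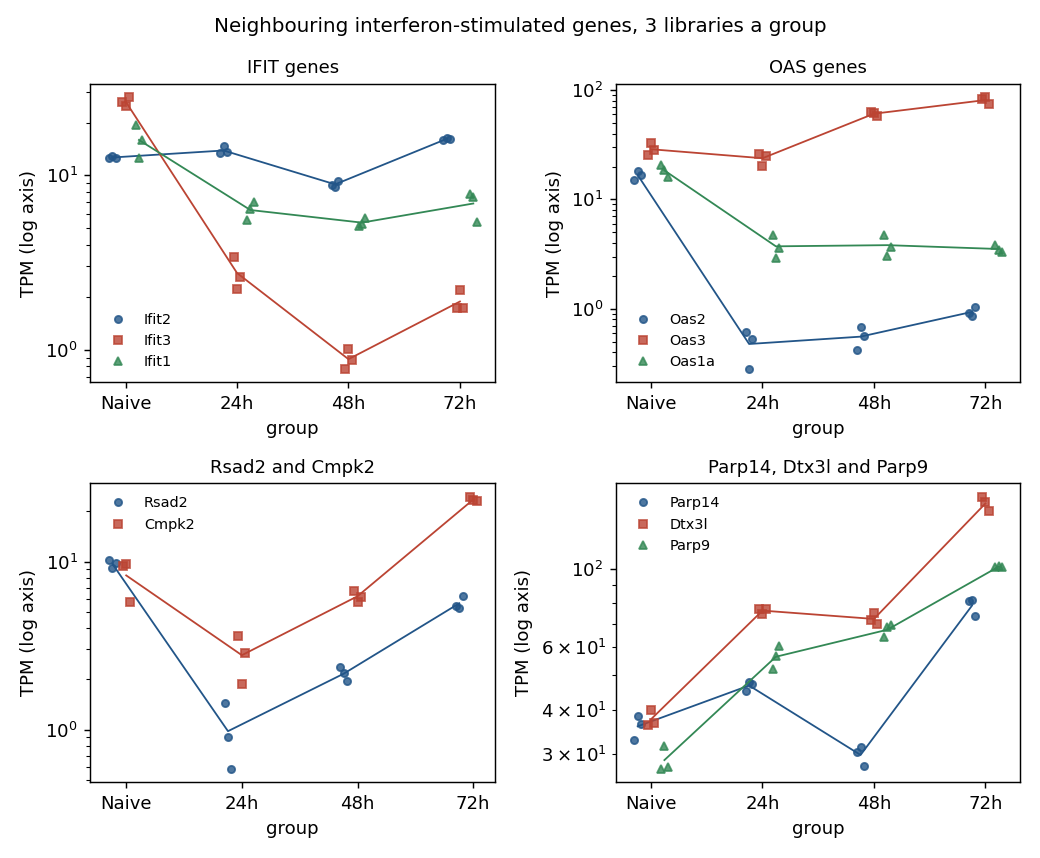
TPM on log axes of members that lie close together in the genome: the IFIT genes, the OAS genes, Rsad2 with Cmpk2, and Parp14 with Dtx3l and Parp9. Points are libraries and lines join the means of 3 libraries. Oas3 lies somewhat above Oas2 in Naive cells and far above it at every later time.

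Among the 6 sensors of viral RNA and their partners, Ddx58 fell and Eif2ak2 rose. Ddx58 (ENSMUSG00000040296), which encodes the sensor RIG-I, stood at 33.3, 41.0 and 40.2 TPM in the Naive libraries, 5.14, 4.56 and 5.05 TPM at 24h, 9.23, 8.05 and 9.38 TPM at 48h and 22.6, 19.4 and 18.8 TPM at 72h. The groups did not overlap, with Naive highest and 24h lowest. Ddx58 fell at 24h and 48h vs Naive, with changes of −2.72 (SE 0.11, adjusted p = 3.84e-11) and −1.98 (SE 0.11, adjusted p = 1.06e-09), and was not called at 72h (−0.88, SE 0.11, adjusted p = 4.42e-06). It rose at 72h vs 48h (1.10, SE 0.11, adjusted p = 4.59e-06). Under both other scalings, median-of-ratios and quantile, the 72h value vs Naive was past the fold minimum, at −1.18 in each. Ifih1, which encodes the related sensor MDA5, averaged 5.78 ± 0.867 TPM in Naive cells, 8.40 ± 0.651 TPM at 24h, 6.32 ± 0.782 TPM at 48h and 9.83 ± 0.470 TPM at 72h and was not called in any comparison (0.48, 0.11 and 0.68 vs Naive). Dhx58 (ENSMUSG00000017830), which encodes LGP2, a regulator of both sensors, stood at 15.2, 17.1 and 17.1 TPM in the Naive libraries, 11.96, 7.97 and 10.9 TPM at 24h, 22.3, 23.3 and 22.4 TPM at 48h and 30.4, 31.5 and 30.03 TPM at 72h. The 24h libraries lay below and the 48h and 72h libraries above the Naive ones. None of its changes vs Naive passed the fold minimum (−0.65, 0.44 and 0.86), and it rose at 48h vs 24h (1.09, SE 0.12, adjusted p = 7.27e-06), a call that ended when 24h replicate 2 was left out, at 0.93.

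Eif2ak2 (ENSMUSG00000024079), which encodes the kinase PKR that halts translation on binding double-stranded RNA, stood at 8.80, 12.2 and 9.42 TPM in the Naive libraries, 26.0, 27.7 and 32.1 TPM at 24h, 40.1, 42.9 and 39.5 TPM at 48h and 92.6, 88.9 and 86.5 TPM at 72h. No libraries of different groups overlapped, and the order was Naive, 24h, 48h and 72h from low to high. Its changes were 1.42 (SE 0.11, adjusted p = 3.64e-08) at 24h, 1.92 (SE 0.11, adjusted p = 1.66e-09) at 48h and 3.03 (SE 0.11, adjusted p = 2.09e-11) at 72h vs Naive, the largest rise of the 32 genes, and it rose again at 72h vs 48h (1.11, SE 0.11, adjusted p = 4.92e-06). It was the 1 member called higher at 24h vs Naive. Trim25, a ubiquitin ligase that acts on RIG-I, and Zbp1, which senses nucleic acid in the Z form and can start necroptosis, were not called in any comparison. The changes of Trim25 vs Naive were −0.20, −0.37 and 0.12, and those of Zbp1 were 0.61, −0.07 and 0.07.

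Isg15 is a ubiquitin-like protein that is attached to other proteins, and Usp18 removes it and also dampens signalling at Ifnar2. Isg15 (ENSMUSG00000035692) stood at 52.8, 34.2 and 31.7 TPM in the Naive libraries, 55.0, 35.3 and 54.0 TPM at 24h, 89.0, 77.8 and 85.3 TPM at 48h and 51.8, 50.2 and 66.6 TPM at 72h. The 48h libraries lay above all others, and the Naive, 24h and 72h libraries overlapped. Isg15 rose at 48h vs Naive (1.10, SE 0.19, adjusted p = 0.00014), which was not called without Naive replicate 3, at 0.97, or under median-of-ratios scaling (0.85) and quantile normalization (0.84). Usp18 (ENSMUSG00000030107) stood at 7.70, 5.65 and 5.34 TPM in the Naive libraries, 11.9, 10.5 and 13.2 TPM at 24h, 17.2, 19.8 and 15.7 TPM at 48h and 11.6, 15.3 and 14.5 TPM at 72h. Every later library was above every Naive library. Its changes were 0.84 (SE 0.14, adjusted p = 0.000108) at 24h, 1.37 (SE 0.14, adjusted p = 1.03e-06) at 48h and 1.04 (SE 0.14, adjusted p = 1.6e-05) at 72h vs Naive. The 72h call of Usp18 was lost without Naive replicate 2, Naive replicate 3 or 72h replicate 2, at 0.95 to 0.99, and with median-of-ratios scaling, at 0.76. Herc6, which in mice encodes a main ligase for Isg15, averaged 17.9 ± 1.45 TPM in Naive cells, 12.4 ± 1.58 TPM at 24h, 8.85 ± 0.931 TPM at 48h and 10.9 ± 0.841 TPM at 72h and was not called (−0.50, −0.94 and −0.67 vs Naive), although every later library was below every Naive library.

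Among the 8 other antiviral effectors, 5 were called lower at 24h vs Naive, where 21.0% of all genes tested were, and 5 were called higher at 72h vs 48h, where 2.81% were. Rtp4 (ENSMUSG00000033355), which encodes a receptor-transporting protein that dampens antiviral signalling in mice, stood at 40.9, 37.3 and 33.0 TPM in the Naive libraries, 4.67, 3.08 and 4.75 TPM at 24h, 2.62, 2.46 and 1.81 TPM at 48h and 12.8, 14.2 and 12.8 TPM at 72h. The groups did not overlap, with Naive highest and 48h lowest. Its changes were −2.89 (SE 0.15, adjusted p = 5.34e-10) at 24h, −3.53 (SE 0.15, adjusted p = 8.06e-11) at 48h and −1.41 (SE 0.15, adjusted p = 9.41e-07) at 72h vs Naive, and its rise at 72h vs 48h, 2.12 (SE 0.15, adjusted p = 2.75e-07), was the largest of the 32 genes in that step. Isg20 (ENSMUSG00000039236), an exonuclease that degrades RNA, stood at 15.5, 15.2 and 14.0 TPM in the Naive libraries, 3.88, 4.11 and 3.63 TPM at 24h, 4.63, 5.38 and 6.14 TPM at 48h and 14.98, 10.6 and 13.2 TPM at 72h. Its 24h and 48h libraries lay below all Naive libraries and its 72h libraries overlapped them. Isg20 fell at 24h and 48h vs Naive, with changes of −1.71 (SE 0.13, adjusted p = 3e-08) and −1.32 (SE 0.13, adjusted p = 4.31e-07), and rose at 72h vs 48h (1.12, SE 0.13, adjusted p = 1.86e-05).

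Rsad2 and Cmpk2 are neighbours in the genome and act in 1 pathway: Cmpk2 makes CTP in mitochondria, and Rsad2, also called viperin, turns CTP into a chain terminator of viral RNA. Cmpk2 (ENSMUSG00000020638) stood at 9.43, 9.68 and 5.74 TPM in the Naive libraries, 3.61, 1.86 and 2.85 TPM at 24h, 6.71, 5.77 and 6.20 TPM at 48h and 24.3, 23.2 and 22.9 TPM at 72h. All 24h libraries were below and all 72h libraries above the Naive ones. The log2 fold changes of Cmpk2 were −1.30 (SE 0.19, adjusted p = 2.35e-05) at 24h, −0.33 (SE 0.19, adjusted p = 0.115) at 48h and 1.43 (SE 0.19, adjusted p = 9.93e-06) at 72h vs Naive, and 1.76 (SE 0.19, adjusted p = 1.12e-05) at 72h vs 48h. Rsad2 (ENSMUSG00000020641), shown because it is Cmpk2's neighbour and so chosen after its values were seen, stood at 10.2, 9.14 and 9.83 TPM in the Naive libraries, 1.45, 0.902 and 0.585 TPM at 24h, 2.34, 2.17 and 1.94 TPM at 48h and 5.46, 5.27 and 6.21 TPM at 72h. It followed the same order of the 3 later groups but stayed below Naive throughout. Its changes vs Naive were −2.46 (SE 0.15, adjusted p = 3.51e-09), −1.77 (SE 0.15, adjusted p = 1.12e-07) and −0.69 (SE 0.15, adjusted p = 0.000786) at 24h, 48h and 72h, the last not called, and it rose at 72h vs 48h (1.08, SE 0.15, adjusted p = 9.18e-05).

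Trim30a (ENSMUSG00000030921), a tripartite-motif protein, stood at 79.6, 85.9 and 86.7 TPM in the Naive libraries, 82.9, 83.6 and 104 TPM at 24h, 144, 156 and 155 TPM at 48h and 194, 200.2 and 174 TPM at 72h. The Naive and 24h libraries overlapped, and the 48h and 72h libraries were above both. Trim30a rose at 72h vs Naive (1.16, SE 0.09, adjusted p = 3.35e-08), a call lost under median-of-ratios scaling (0.85) and quantile normalization (0.84). It has close copies next to it in the genome, Trim30c and Trim30d, with the same doubt on shared reads. Samd9l, a suppressor of growth and translation, averaged 50.9 ± 3.84 TPM in Naive cells, 18.3 ± 3.79 TPM at 24h, 33.6 ± 1.81 TPM at 48h and 61.8 ± 5.45 TPM at 72h and fell at 24h vs Naive alone (−1.45, SE 0.12, adjusted p = 1.23e-07). Mx1, a gene of the dynamin-like GTPase family, averaged 7.23 ± 0.531 TPM in Naive cells, 3.94 ± 0.959 TPM at 24h, 5.11 ± 1.22 TPM at 48h and 11.8 ± 0.900 TPM at 72h. It was not called vs Naive and rose at 72h vs 48h (1.09, SE 0.16, adjusted p = 0.000188), which was 0.93 and not called when 48h replicate 3 was left out. Bst2, also called tetherin, which holds budding virus at the cell surface, had the highest level of the 32 genes in every group, at 177 ± 44.2 TPM in Naive cells, 259 ± 32.7 TPM at 24h, 246 ± 6.89 TPM at 48h and 329 ± 20.8 TPM at 72h. It was not called in any comparison. Its largest change, 0.92 at 72h vs Naive, passed the fold minimum without Naive replicate 1, at 1.11.

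The 3 genes Parp14, Dtx3l and Parp9 lie side by side in the RefSeq gene order, and all rose at 72h vs Naive. Parp9 and Dtx3l encode partners in an ADP-ribosylating ubiquitin ligase, and Parp14 an enzyme that attaches ADP-ribose to proteins. Dtx3l (ENSMUSG00000049502) stood at 36.3, 39.9 and 36.7 TPM in the Naive libraries, 76.9, 74.7 and 76.9 TPM at 24h, 71.7, 75.1 and 69.8 TPM at 48h and 159, 154 and 145 TPM at 72h. Its 24h and 48h libraries overlapped, lay above the Naive ones and lay below those of 72h. Its change at 24h vs Naive, 0.9999, fell just under the fold minimum, and it was 1.99 (SE 0.06, adjusted p = 4.35e-12) at 72h vs Naive and 1.07 (SE 0.06, adjusted p = 4.38e-08) at 72h vs 48h. Parp9 (ENSMUSG00000022906) stood at 27.3, 31.6 and 27.7 TPM in the Naive libraries, 52.0, 56.9 and 60.5 TPM at 24h, 64.0, 68.4 and 69.4 TPM at 48h and 101, 102 and 101 TPM at 72h. No groups overlapped, and the changes vs Naive were 0.94 (SE 0.07, adjusted p = 4.42e-08) at 24h, 1.20 (SE 0.07, adjusted p = 4.07e-09) at 48h and 1.78 (SE 0.07, adjusted p = 8.24e-11) at 72h. The 48h call of Parp9 was lost under median-of-ratios scaling (0.95) and quantile normalization (0.96). At 24h vs Naive it passed the fold minimum without Naive replicate 2 or 24h replicate 1, at 1.01 and 1.00. Parp14 (ENSMUSG00000034422) stood at 32.8, 38.5 and 36.5 TPM in the Naive libraries, 45.2, 47.9 and 47.4 TPM at 24h, 30.5, 31.3 and 27.7 TPM at 48h and 81.0, 81.6 and 73.5 TPM at 72h. Unlike its neighbours it was lower at 48h than in Naive cells, with no overlap, though under the fold minimum (−0.26). It rose at 72h vs Naive (1.11, SE 0.08, adjusted p = 1.32e-08) and at 72h vs 48h (1.37, SE 0.08, adjusted p = 4.38e-08). The rise of Parp14 vs Naive lay under the fold minimum in both other scalings, at 0.80 (median-of-ratios) and 0.82 (quantile).

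Of the remaining 3 genes, Xaf1 (ENSMUSG00000040483), which encodes a binding partner of the apoptosis inhibitor XIAP, stood at 18.8, 17.0 and 18.8 TPM in the Naive libraries, 7.60, 6.03 and 8.13 TPM at 24h, 10.2, 8.58 and 9.53 TPM at 48h and 19.1, 18.7 and 18.9 TPM at 72h. Its 24h and 48h libraries were below the Naive ones and its 72h libraries overlapped them. Xaf1 fell at 24h vs Naive (−1.23, SE 0.11, adjusted p = 1.32e-07) and was not called at 48h (−0.88) or 72h (0.05). Ifi35, whose product binds that of Nmi, was not called, with changes vs Naive of 0.14, 0.02 and 0.35. Ifi44 was under 1 TPM in every Naive, 24h and 48h library and stood at 2.04, 2.02 and 1.60 TPM at 72h. It was not called, and its change at 72h vs Naive was 0.78 (SE 0.18).

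The calls between 48h and 72h were of genes higher at 72h. At 72h vs 48h 9 of them rose (Rtp4, Cmpk2, Parp14, Isg20, Eif2ak2, Ddx58, Mx1, Rsad2 and Dtx3l), where 2.81% of all genes tested were called higher. None was called lower by limma on TPM, where 3.22% of all genes were. With limma voom on recovered reads none was called lower either, and the share of all genes called lower there is not given. At an unadjusted p under 0.05, 26 had a higher and 3 a lower value. In 26 of the 32 genes every 72h library was above every 48h library, and in 3 (Isg15, Oasl1 and Usp18) every one was below. Both counts of 26 include Ifi44, which entered the test through its 72h libraries alone. The shares of all genes tested that met these 2 criteria are not given. At an adjusted p under 0.05 with no fold minimum, 23 members were higher and 2 lower. Of the 12630 genes tested, 5366 passed that threshold in either direction. The median log2 fold change of the 32 genes was 0.53, against 0.02 for all genes tested. The 9 calls were drawn from 4 of the patterns: 4 from the genes higher at 72h vs Naive, 3 from those lower at 24h, Rtp4 from those lower at all 3 times, and Mx1 from those never called vs Naive. In fits that left out a library 8 or 9 rose, and 9 rose in a fit without the Naive libraries. Summed over the 13 macrophage, monocyte and neutrophil markers the level was 7.35 to 8.23 TPM at 72h, against 14.4 to 17.8 TPM at 48h, and 8 of the 13, Lyz2, Csf1r and C1qa among them, were at 0 in all 72h libraries. The sum of 10 B cell markers was higher, at 492 to 522 TPM against 253 to 262 TPM. That rise lay in Ighm, which averaged 471 TPM against 217 TPM. The median log2 fold change of the 10 was −0.44, with 1 called higher and 9 not called. In 5 of them every 72h library was below every 48h library. The sum of 5 stromal and endothelial markers was also higher, at 20.5 to 22.7 TPM against 9.92 to 12.7 TPM, most of it Pecam1. Sums of dendritic and CD4 T cell markers were lower, and those of NK and erythroid markers overlapped. Among the markers with lower sums, Itgax and Cd4 averaged higher at 72h, while Zbtb46 and Zbtb7b averaged lower. What part RNA of other cells has in this step was not tested.

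The step from 24h to 48h brought fewer calls. At 48h vs 24h 2 members rose, Oas3 and Dhx58, where 4.95% of all genes tested were called higher, and none was called lower by limma on TPM, where 3.07% were. With voom on recovered reads 5 were called higher and 1 lower. At an unadjusted p under 0.05, 15 had a higher and 9 a lower value, and the share of all genes tested is not given. At an adjusted p under 0.05 with no fold minimum, 15 members were higher and 7 lower. Of the 12630 genes tested, 6575 passed that threshold in either direction. The median of the 32 genes was 0.23, against −0.06 for all genes tested.

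**Figure D5:**
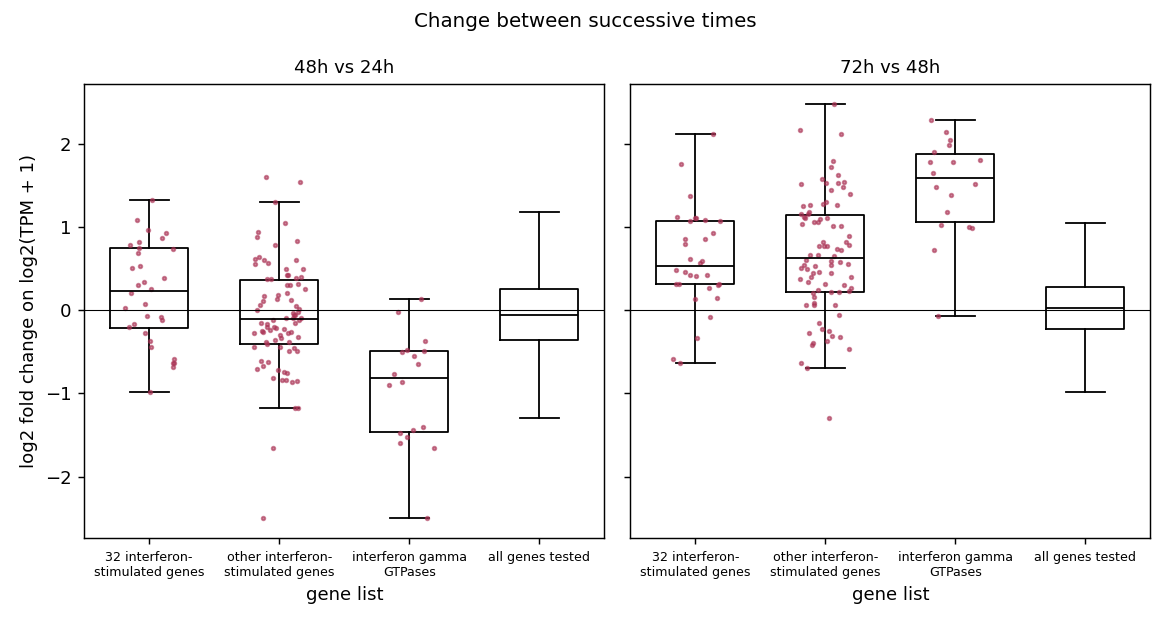
Log2 fold change on log2(TPM + 1) at 48h vs 24h (left) and 72h vs 48h (right) for the 32 genes, 86 other interferon-stimulated genes, 18 interferon gamma GTPases and all 12630 genes tested. Points are genes, boxes the quartiles and median, and whiskers reach the last value within 1.5 box lengths. The 32 genes lie on both sides of 0 in the left panel and mostly above 0 in the right one.

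Of other interferon-stimulated genes, listed apart from the 32, more were called higher than lower at 72h vs 48h, and 54 were not called. Of 99 listed, 92 were in the table and 86 were tested. At 24h vs Naive 10 were called higher and 41 lower, at 48h vs Naive 10 and 36, and at 72h vs Naive 15 and 22. Of all genes tested, 24.5% to 25.7% were called higher and 19.0% to 21.0% lower at these times. At 72h vs 48h 31 of the 86 were called higher and 1 lower, where 2.81% and 3.22% of all genes were. The median of the 86 in that step was 0.63. The largest rises vs Naive were of Ly6a, a T cell activation antigen (5.09 at 72h), Gbp2, a guanylate-binding GTPase (4.49 at 24h), and Mlkl, the executor of necroptosis (3.78 at 72h). The largest falls were of Pydc4 (−5.34 at 48h), the chemokine gene Ccl5 (−4.58 at 48h) and Irf7, given above. The 86 genes include Irf9 and Irf7. Some of them, Ifit3b and Trim30b among them, entered the test through the Naive libraries alone.

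The GTPases best known as targets of interferon gamma were more often called higher than lower vs Naive. Of 18 tested, 13 were called higher and 2 lower at 24h vs Naive, 9 and 2 at 48h vs Naive, and 16 were called higher and 2 not called at 72h vs Naive. The shares of all genes tested were 24.5% to 25.7% higher and 19.0% to 21.0% lower. At 48h vs 24h 7 of the 18 fell, where 3.07% of all genes were called lower, and 11 were not called. At 72h vs 48h 15 rose, where 2.81% of all genes were called higher, and 3 were not called. The medians of the 18 in these steps were −0.82 and 1.58. The largest rises vs Naive were of Iigp1 (6.20 at 72h), Gbp2 and Gbp5 (4.03 at 24h), and the falls were of Gbp8 (−1.97 at 24h) and Gbp9 (−1.96 at 48h). Their summed level was 605 to 622 TPM in Naive libraries, 2847 to 3093 TPM at 24h, 1217 to 1276 TPM at 48h and 3090.1 to 3247 TPM at 72h, so that the 48h libraries lay between the Naive ones and those of 24h and 72h, while Ifng was highest at 48h. The difference between these lists and the 32 genes was not tested.

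Most markers of other spleen cells were called lower vs Naive, where 19.0% to 21.0% of all genes tested were. There were exceptions among the dendritic cell, B cell and CD4 T cell markers. The B cell marker Cd79b was not called at 24h vs Naive (−0.93). Of 2 CD4 T cell markers tested, 2, 1 and 1 were called lower at 24h, 48h and 72h vs Naive. The sum of 6 erythroid markers was 1436 to 2004 TPM in Naive libraries and at most 13.5 TPM later. All 13 macrophage, monocyte and neutrophil markers were called lower at each time vs Naive. Of these, Csf1r, C1qa, C1qb, C1qc, Adgre1 and Cd14 were under 1 TPM in every later library. They entered the test through the Naive libraries alone, so their calls follow in part from that filter. The same holds for some markers of other lists, among them Clec9a, Siglech, Klra8 and Cd4. The sum of 10 B cell markers was 2848, 2145 and 1987 TPM in the Naive libraries, 511 to 580 TPM at 24h, 253 to 262 TPM at 48h and 492 to 522 TPM at 72h, most of it Ighm. The sum of 6 plasmacytoid dendritic cell markers was 74.6 to 103.8 TPM in Naive libraries, 31.4 to 33.8 TPM at 24h, 13.1 to 17.0 TPM at 48h and 10.1 to 12.8 TPM at 72h. The sum of 6 conventional dendritic cell markers was 23.3 to 49.7 TPM in Naive libraries and at most 4.30 TPM later, and that of 6 NK cell markers 61.7 to 136.8 TPM in Naive libraries and at most 6.50 TPM later. Of the 6 plasmacytoid markers 4 were called lower and 2 not called at each time vs Naive. Pacsin1 stood at 19.8 to 25.3 TPM in Naive libraries and 21.7 to 23.6 TPM at 24h, and Cox6a2 averaged 5.36 ± 1.92 TPM at 48h, against 2.81 ± 1.32 TPM in Naive cells, with overlapping libraries. Of the 6 conventional markers 5 were called lower at each time vs Naive, while Zbtb46 was above Naive in every 24h library and was called higher at 48h vs Naive (1.15, SE 0.14, adjusted p = 5.66e-06), at 2.97 ± 0.352 TPM at 48h, against 0.792 ± 0.156 TPM in Naive cells. Cd79b, Pacsin1, Cox6a2 and Zbtb46 are named after their values were seen. Within the Naive group the 7 members lower at all 3 times summed to 138, 126 and 127 TPM in replicates 1, 2 and 3, while the macrophage, monocyte and neutrophil markers summed to 2838, 1944 and 1118 TPM. The 5 members lower at 24h but not at 72h summed to 126, 138 and 132 TPM in the same libraries, and to 124, 121 and 113 TPM at 72h, where 8 of those 13 markers were at 0. What part RNA of other cells has in the falls vs Naive was not tested.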

How the data were processed

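The authors deposited TPM for 48709 genes in 12 libraries. The submitters' processing notes name FastQC 0.11.9, cutadapt 2.9, STAR 2.7.7a, edgeR 3.36.0 and GRCm39. For the read counter, its strand setting and shared reads, nothing was stated (not given in the sources used here). Whole reads were recovered from the TPM steps for 19181 of 19181 genes above 0, within a tolerance of 0.001. A gene's recovered reads could still be a whole fraction of the true ones, and they served for depth and 1 alternative.

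The 12630 genes that reached 1 TPM in 3 or more of the 12 libraries were tested on log2(TPM + 1) with limma 3.58.1 in R 4.3.3, using 4 group means, empirical Bayes moderation with an intensity trend and Benjamini-Hochberg adjustment over all of them in each of 5 comparisons. Tests were 2-sided, and the test was tried on simulated data. The 3 comparisons with Naive share its libraries. Tables and figures used Python 3.11.15, numpy 2.4.6, pandas 2.3.3 and matplotlib 3.10.9.

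The 32 genes and all lists were chosen with earlier results of these data known. Values in every library are given for up to 3 called genes of largest change in each role averaging 10 TPM or more in some group, and for genes called higher vs Naive or in both directions. Of the other lists the 3 largest rises and 3 largest falls vs Naive with at least 5 TPM are named. Alternatives changed pseudocount, filter, scaling, replicate block, trend, groups fitted, library weights, fold minimum and each library. After the data had been seen, the voom fit and the fit that drops the Naive libraries were added. Promoters were matched by symbol, and genes of the lists absent from the table under the listed name were not analysed here.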

Additional observations from a re-analysis of the deposited data

How the results depend on the processing

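No call of a member reversed in any alternative run. The 56 called pairs of member and comparison and 8 chosen uncalled pairs were followed, which gave 1163 refitted fold changes over the alternatives. Of these, 1092 kept their direction and their side of the threshold, 54 no longer passed and 17 newly passed. The other uncalled pairs were not followed in this way, so the 17 do not count every member that newly passed. The cause of the shifts between settings was not tested.

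With no fold minimum the members called higher and lower were 8 and 19 at 24h vs Naive, 10 and 17 at 48h vs Naive, 17 and 10 at 72h vs Naive, 15 and 7 at 48h vs 24h, and 23 and 2 at 72h vs 48h. With a pseudocount of 0.1, 2 were called higher at 24h vs Naive, and 5 higher and 1 lower at 48h vs 24h. With a pseudocount of 5, 4 were called lower at 72h vs Naive, 1 higher at 48h vs 24h and 5 higher at 72h vs 48h. With median-of-ratios scaling 2 were called higher at 48h vs Naive and 5 at 72h vs Naive. Quantile normalization gave 2 higher at 48h vs Naive and 1 lower at 48h vs 24h. With voom on recovered reads 3 were called higher at 48h vs Naive, and 5 higher and 1 lower at 48h vs 24h. The shares of all genes called higher, and called lower, are not given for these settings or for the fits below that leave out a library.

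Leaving out each library in turn gave 1 to 3 members higher at 24h vs Naive, with 3 without Naive replicate 2 and 2 without 24h replicate 1 or 2. At 48h vs 24h it gave 1 to 3 higher and 0 to 1 lower, with 1 higher without 24h replicate 2 and 1 lower without 24h replicate 2, 24h replicate 3 or 48h replicate 2. The other counts stayed within 4 to 5 higher and 9 to 11 lower at 48h vs Naive, 7 to 9 higher and 6 to 7 lower at 72h vs Naive, and 8 to 9 higher at 72h vs 48h.

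No pairing of the libraries by replicate number was seen. Deviations of same-numbered libraries correlated at −0.05 to 0.09 over 18 pairs, and 5 of 12 libraries were best matched by their own number. With deviations from means of 3 libraries, this check cannot tell whether same-numbered libraries share animals. A replicate block left the counts at 1 higher and 13 lower at 24h, 5 and 10 at 48h, and 9 and 7 at 72h vs Naive, 2 higher at 48h vs 24h and 9 higher at 72h vs 48h, and it ended no call of a member.

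All genes called either way numbered 5902, 5726 and 5503 at 24h, 48h and 72h vs Naive, against 10419, 10466 and 10398 with no fold minimum. At 48h vs 24h the count was 1013, against 6575 with no fold minimum, 1615 and 448 with a pseudocount of 0.1 and 5, and 1531 with voom. At 72h vs 48h it was 762, against 5366, 1247, 318 and 1209 in the same settings. The median of all genes at 24h vs Naive was −0.10 with median-of-ratios scaling, against 0.15 on TPM.

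With 3 libraries a group, genes of few reads are limited by counting error, and the recovered reads carry no molecular identifiers. Read sharing between close copies limits Ifit1, Ifit3, Oas1a and Trim30a. The longer ISRE form stood in 6 of the 24 promoters and the core in 12.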
